A study of Mus musculus with 6 samples.

Results

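The insulin-like growth factor (IGF) genes of the mouse kidney were examined in RNA-Seq data of cystic *Pkd1* mutant kidneys. The genes were the ligand *Igf1*, the receptors *Igf1r* and *Insr*, the insulin receptor substrates *Irs1* and *Irs2*, and the binding protein genes *Igfbp1*, *Igfbp3*, *Igfbp4*, *Igfbp5* and *Igfbp7*. They were chosen by gene symbol, with earlier results of these data known. All 10 genes were found, with 23 of the 54721 transcripts listed and 10 of 23276 gene symbols. Kidneys of 6 mice were sequenced at postnatal day 22 by the sample labels. In 3 of them, KspCre acted on the F allele of *Pkd1* F/RC (SKO). In the other 3, KspCre acted on the F allele of *Pkd1* F/RC together with miR17~92 F/F (DKO). The paper describes RC as a germline hypomorphic mutation, one that reduces function, so it is not confined to tubule cells. Both groups therefore carry KspCre and the F and RC alleles of *Pkd1*, and they differ in the floxed miR-17∼92 cluster, a set of microRNAs made from one transcript. KspCre is a Cre recombinase driven in kidney tubule cells, so stromal, vascular and immune cells of the same kidneys are not its targets, whereas the RNA came from whole kidney.

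Each transcript is described here by 1 number, its mean abundance over all libraries. The unit is CPM, counts scaled to the size of the library, and the authors give its average over libraries as a log2 value. No value of a single kidney or of a single group was used, and a difference between SKO and DKO kidneys was not analysed here. The spread between mice and the depth of each library are likewise unknown here, so no value below has an error and no order of genes was tested. Because the values are of whole tissue, fewer cells of a type and less RNA per cell cannot be told apart.

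IGF1 is a secreted growth factor that binds the IGF1 receptor, a tyrosine kinase closely related to the insulin receptor. Both receptors phosphorylate the IRS adaptors, which recruit PI3 kinase and so activate AKT. In the extracellular fluid, IGFs are held by binding proteins that lengthen their life, limit their access to the receptor or carry them to the matrix. In the kidney the pathway is known for its part in tubule growth, glomerular filtration and compensatory enlargement.

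The microRNAs of the deleted cluster are shown first, since they define what separates the groups and give the seeds that were sought in the IGF genes. The 6 mature strands below come from RefSeq (GRCm38.p6) and lie on the forward strand of chromosome 14. Capitals mark the seed, bases 2 to 8 from the 5′ end, which pairs with target mRNAs.
miR-17-5p: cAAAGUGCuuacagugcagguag
miR-20a-5p: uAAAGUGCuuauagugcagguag
miR-18a-5p: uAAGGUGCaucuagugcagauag
miR-19a-3p: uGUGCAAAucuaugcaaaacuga
miR-19b-3p: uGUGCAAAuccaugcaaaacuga
miR-92a-3p: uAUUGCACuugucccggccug
They fall into 4 groups by seed. miR-17 and miR-20a share AAAGUGC, and miR-19a and miR-19b share GUGCAAA. miR-18a has AAGGUGC and miR-92a has AUUGCAC.

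A match to one of these seeds was present in the 3′-UTRs of 6 of the 10 genes, with 8 matches in all when each gene was taken by its most abundant RefSeq transcript with a known length. The share of all genes with any of these matches was not computed. This count can therefore show neither an excess nor its absence, and each seed is set beside all genes below. The 3′-UTRs were those of GENCODE transcripts on GRCm38, the assembly also named mm10, and only the transcribed strand was searched. The letters sought were GCACTTT for miR-17 and miR-20a, GCACCTT for miR-18a, TTTGCAC for miR-19 and GTGCAAT for miR-92a. Each match is printed with its flanks from the transcript, the matching bases in capitals.
Igfbp4 with miR-17/20a: gtgtcagcctGCACTTTgggac
Igfbp4 with miR-19: cagcctagagTTTGCACaggat
Igfbp3 with miR-19: tatgccttatTTTGCACaaaag
Igf1 with miR-19: tttaaaaagcTTTGCACcttgc
Igf1 with miR-18a: aaaaagctttGCACCTTgcaaa
Igf1r with miR-92a: caggtggacaGTGCAATcctca
Insr with miR-92a: gtttggccttGTGCAATcttga
Igfbp5 with miR-92a: aaccactaaaGTGCAATgtttc
*Igfbp4* was the only one of the 10 genes with a match to the miR-17 seed, at positions 1562 to 1568 of its 2813-nt 3′-UTR (chr11:99053141-99053147, forward strand). Its miR-19 match lies at positions 1347 to 1353 (chr11:99052926-99052932). The miR-19 match of *Igfbp3* lies at positions 42 to 48 of 1435 nt (chr11:7207473-7207479, reverse strand), close to the stop codon. In *Igf1* the miR-19 and miR-18a matches share 4 bases, at positions 229 to 235 and 232 to 238 of the 1101-nt 3′-UTR of NM_010512 (chr10:87930929-87930938 for both together, forward strand). The other transcript of *Igf1* with the same leader exon, NM_001111275, had 39.40 CPM against 39.42 CPM. Both overlap and may share reads, so equal amounts of each are not shown. In GENCODE, NM_001111275 has a longer 3′-UTR of 6308 nt. It holds the same matches and a second miR-19 match at positions 3272 to 3278 (chr10:87934006-87934012), which is followed by an A.
Igf1 with miR-19, NM_001111275 only: tacatgtgcaTTTGCACatgcg
The GENCODE models matched to NM_001111274 and NM_001111276 end at 87930877 and 87930899, before all of these matches. Whether the transcripts counted by the authors end there is not known. Where a match is present or absent is therefore stated for these models only.

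The miR-92a matches lie in the receptors and *Igfbp5*. That of *Igf1r* is at positions 3569 to 3575 of 7267 nt (chr7:68229970-68229976, forward strand), and that of *Insr* at 3073 to 3079 of 4747 nt (chr8:3152590-3152596, reverse strand). In *Igfbp5* it is at 3664 to 3670 of 4445 nt (chr1:72858707-72858713, reverse strand). *Irs1*, *Irs2*, *Igfbp1* and *Igfbp7* held none of the 4 matches, and their 3′-UTRs are 4525, 2329, 529 and 232 nt long.

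These counts are read beside those of all genes. Among 12296 genes that had a 3′-UTR and reached 1 CPM, 13.8% held a miR-17/20a match, 8.62% a miR-18a match, 12.1% a miR-19 match and 7.08% a miR-92a match. The IGF genes held them in 1, 1, 3 and 3 of 10. Their 3′-UTRs are longer, with a median of 2571 nt against 1034 nt. Per kb of 3′-UTR, the IGF genes had 0.034 miR-17/20a matches against 0.106 in all genes, and 0.034 miR-18a matches against 0.0625. For miR-19 the values were 0.102 and 0.0927 per kb, and for miR-92a 0.102 and 0.0513, each from 3 matches in the IGF genes. A longer match, with an A after the 7 bases, was present for miR-19 in *Igfbp3* and *Igfbp4* and for no other of the 8, besides the second miR-19 match of *Igf1* in NM_001111275. Among the 12296 genes, 5.45% held this longer miR-19 match. A match of letters is a description and not a shown site of binding.

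**Figure D1:**
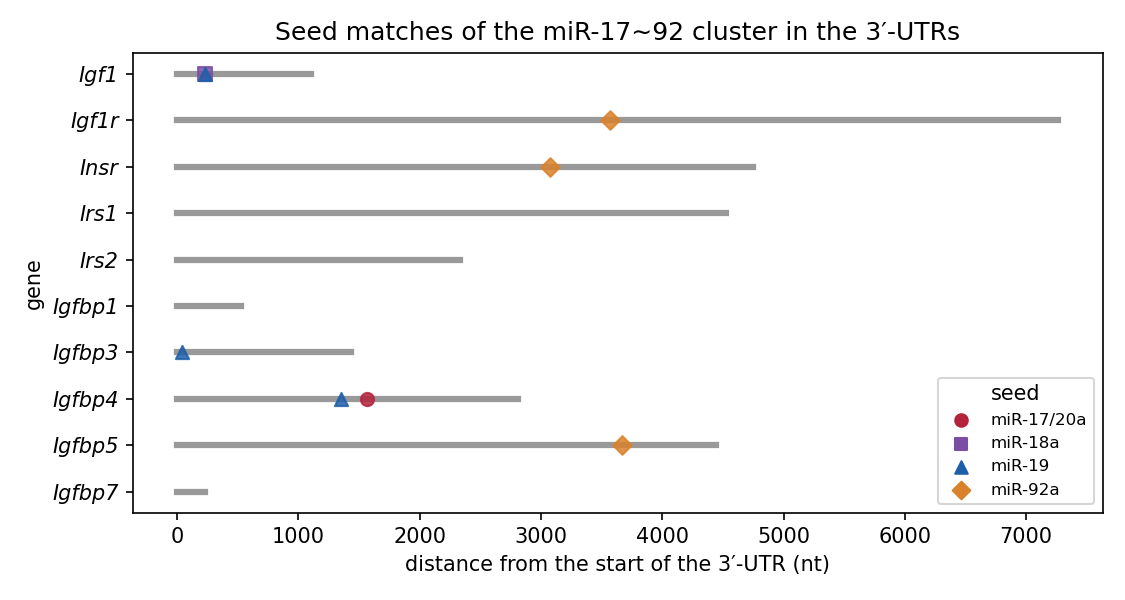
Positions of the seed matches of the miR-17∼92 cluster (markers, by seed) along the 3′-UTR of each gene (grey bars, to scale, in nt from the start of the 3′-UTR). The 3′-UTR of *Igf1* is that of NM_010512. Of the 10 genes, 6 hold a match, and the one miR-17/20a match lies in *Igfbp4*. The share of all genes with any match was not computed.

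Of the 5 binding protein genes, 3 had the highest mean CPM of the 10 genes and 1 had the lowest, before division by length. *Igfbp7*, whose product binds IGFs weakly and is a protein of the vascular and epithelial matrix, had a mean of 393.9 CPM. *Igfbp5*, a binding protein that associates with matrix, had 385.1 CPM. *Igfbp4*, which inhibits IGF action until it is cleaved by the protease PAPP-A, had 194.1 CPM. These 3 genes ranked above 99.6%, 99.6% and 98.5% of the 13001 genes whose mean reached 1 CPM. *Igfbp3*, the main carrier of IGFs in serum, had 65.2 CPM and ranked above 91.3%. *Igfbp1*, which in the liver is repressed by insulin, had 4.94 CPM and ranked above 23.7%. This was the lowest place of the 10 by CPM, but not per kb, as given below.

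The receptors were of intermediate abundance. *Igf1r* had a mean of 76.8 CPM and *Insr* 49.4 CPM, above 93.2% and 87.0% of the genes. *Igf1* itself had 39.5 CPM and ranked above 82.8%. The substrates were lower, with 17.5 CPM for *Irs1* and 18.4 CPM for the more abundant transcript of *Irs2*, above 60.6% and 61.9% of the genes. All 10 genes were above 1 CPM, as were 13001 of all 23276 genes listed.

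A long transcript yields more reads than a short one at the same number of molecules, so levels of different genes were compared per kb of transcript. On this scale *Igfbp7* stood at 328.2 CPM per kb, which is 5.12 times the 64.1 of *Igfbp5*, although their CPM differed by only 1.02-fold. The *Igfbp7* transcript is 1200 nt long and that of *Igfbp5* 6006 nt. *Igfbp4* followed with 50.7 and *Igfbp3* with 26.9 CPM per kb, so that 4 of the 5 binding protein genes led the order, with *Igf1* taken by the transcript named next. *Igfbp1* had 3.24 CPM per kb, 101.4 times less than *Igfbp7* and 8.32 times less than *Igfbp3*, its neighbour on chromosome 11.

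*Igf1* had 23.6 CPM per kb by the transcript NM_010512, whose GENCODE model is 1673 nt long, and 5.59 by NM_001111275. The receptor genes, with transcripts of 11409 and 9355 nt, stood close together at 6.73 CPM per kb for *Igf1r* and 5.28 for *Insr*, a ratio of 1.28. *Irs1* had 1.92 and *Irs2* 1.06 CPM per kb by their RefSeq transcripts of 9144 and 6323 nt. Against 12736 expressed genes with a known transcript length, 7 of the 10 genes lay above the median of 4.0 CPM per kb. The exceptions were *Igfbp1*, *Irs1* and *Irs2*, at the 42.9th, 27.4th and 14.4th percentiles. The value of *Irs2* is that of NM_001081212 at 6.68 CPM, and its assembled transcript of 18.4 CPM has no known length.

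**Figure D2:**
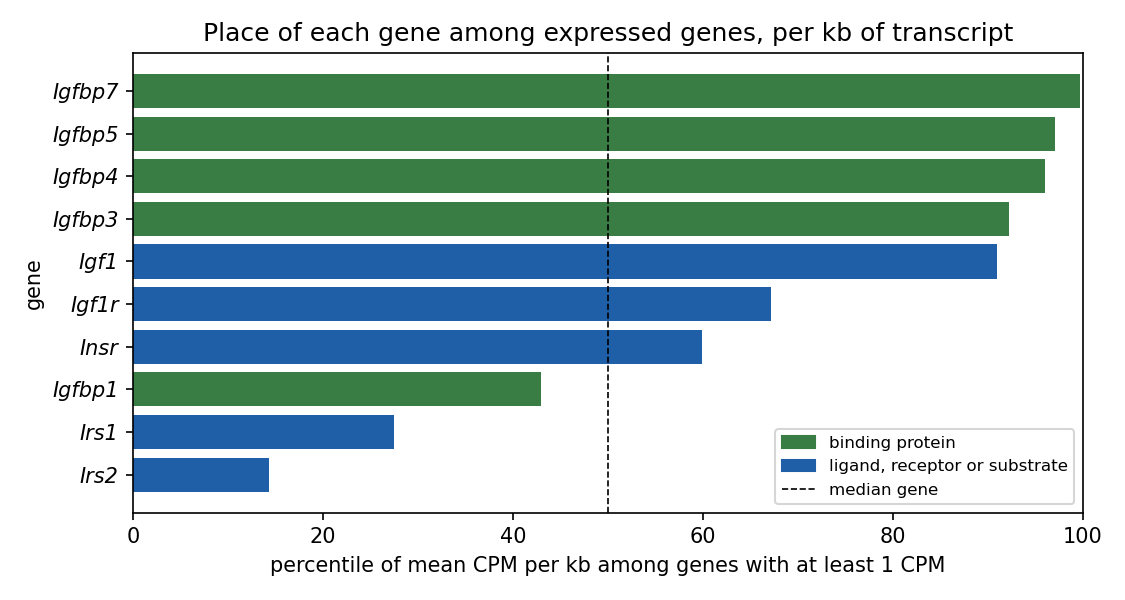
Percentile of each gene's mean CPM per kb among genes with at least 1 CPM, with binding protein genes in green, the other genes in blue and the median gene as a dashed line. *Igfbp7*, *Igfbp5*, *Igfbp4* and *Igfbp3* lie between the 92.2nd and the 99.8th percentile, and *Irs2* is lowest at 14.4. *Irs2* is taken by NM_001081212 at 6.68 CPM, since its assembled transcript of 18.4 CPM has no known length.

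Of the 23 transcripts, 15 carry a RefSeq identifier and 8 were assembled from the reads. *Igf1r* (NM_010513), *Irs1* (NM_010570), *Igfbp1* (NM_008341) and *Igfbp3* (NM_008343) have 1 transcript each. For *Insr*, NM_010568 and an assembled transcript had the same 49.4 CPM. For *Igfbp4*, NM_010517 had 194.1 CPM and the assembled transcript 173.6 CPM. For *Igfbp5*, NM_010518 had 385.1 CPM and the assembled one 363.7 CPM. The 5 transcripts of *Igfbp7* ran from 350.2 to 393.9 CPM, with NM_001159518 and NM_008048 at 393.9 and 393.8 CPM. In these 4 genes the highest transcript exceeded the lowest by at most 1.12-fold. Transcripts of one gene overlap, and whether a read was counted for each of them is not given in the sources used here, so they were never added up.

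*Irs2* and *Igf1* were the genes whose transcripts differed. The assembled transcript of *Irs2* had 18.4 CPM and NM_001081212 had 6.68 CPM, a ratio of 2.75. The position of assembled transcripts is not given in the table, so it is unknown which part of *Irs2* carries the additional reads. Their order against *Irs1* depended on the transcript taken, since 17.5 CPM for *Irs1* lies between both values.

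*Igf1* is known for alternative leader exons and for alternative splicing at its 3′ end, which gives precursors with different E peptides around one mature hormone. The gene spans chromosome 10 from 87858265 to 87937042 on the forward strand. NM_010512 and NM_001111275, which share a leader exon ending at 87859412, had 39.42 and 39.40 CPM. NM_001111274 and NM_001111276, with the other leader exon ending at 87861385, had 35.20 and 35.18 CPM. Within each pair, one transcript holds the 52-nt exon from 87915298 to 87915349 and one lacks it. All 4 share the exons of 157 and 182 nt, and their means lay within 1.12-fold. Their GENCODE models differ in length from 651 to 7052 nt, mainly by a 3′-UTR of 165 to 6308 nt. The counted transcripts may end elsewhere and may share reads, which was not tested. The level of *Igf1* per kb depended on the model taken, from 5.59 CPM per kb by NM_001111275 to 54.1 by NM_001111274. At the lower value *Igf1* stands between *Igf1r* and *Insr*, and at the higher between *Igfbp5* and *Igfbp4*. NM_184052 had 4.0 CPM, 8.79 times less than the next transcript, and an assembled transcript had 39.5 CPM. No GENCODE structure was matched to either.

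**Figure D3:**
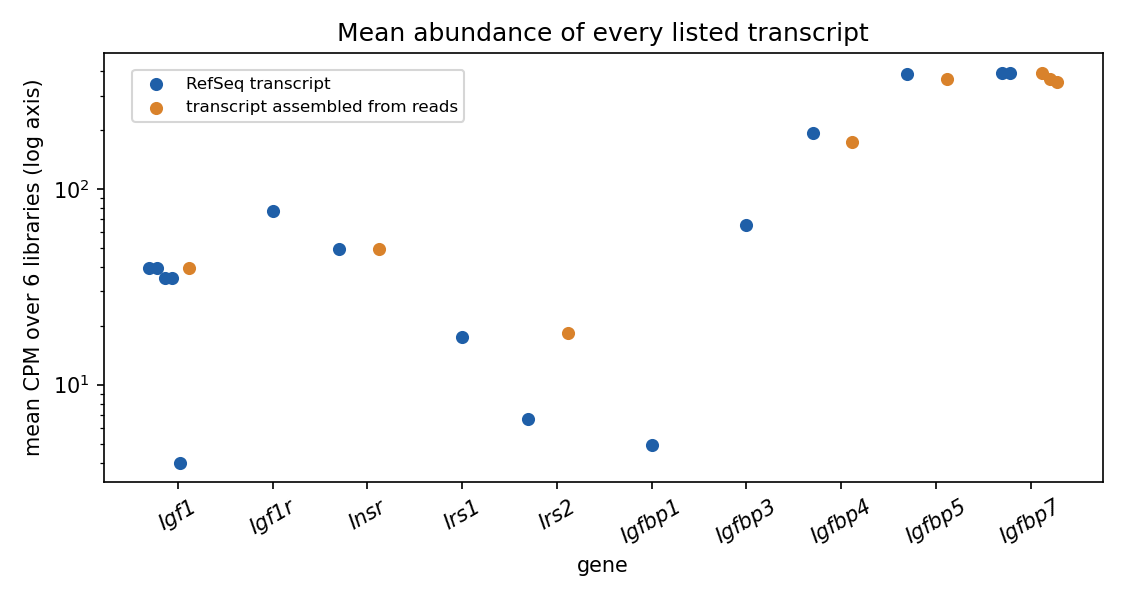
Mean CPM over 6 libraries (log axis) of each of the 23 transcripts, by gene, with RefSeq transcripts in blue and transcripts assembled from reads in orange. Transcripts of a gene lie close together except for *Irs2*, at 6.68 and 18.4 CPM, and for the *Igf1* transcript at 4.0 CPM.

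The other genes of the pathway were taken from a list of 39, of which all were listed and 34 had at least 1 CPM. Their median was 21.8 CPM, against 57.3 CPM for the 10 genes above and 12.6 CPM for all genes with at least 1 CPM. The 10 genes and the list were chosen with earlier results of these data known. Family members such as *Igf2*, *Igfbp2* and *Igfbp6* stand in the list of 39, so the difference of the medians depends on that choice. Per kb the medians were 4.11 for the list of 39, 15.1 for the 10 genes and 4.0 for all genes with at least 1 CPM, with *Igf1* taken by NM_010512. The 15.1 depends on that transcript, since *Igf1* and *Igf1r* are the middle genes of the 10. With *Igf1* taken by NM_001111275, the median of the 10 genes lies between 5.59 and 6.73 CPM per kb. Of the other ligands, *Igf2*, the fetal growth factor of the family, had 3.46 CPM. The insulin genes *Ins1* and *Ins2* had 0.0263 and 0.0278 CPM, at or next to the lowest value of the table, 0.0263 CPM, which 4617 transcripts share. Per kb, *Igf1* was at 23.6 by NM_010512 or 5.59 by NM_001111275, and *Igf2* at 0.732.

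The remaining receptors were *Igf2r*, which removes IGF2 and sorts lysosomal enzymes, at 36.6 CPM, and *Insrr*, a relative of the insulin receptor that senses alkaline pH, at 8.76 CPM. Among binding proteins outside the 10, *Igfbp2* led with 16.1 CPM and 12.3 CPM per kb. On that scale it lay between *Igf1* by NM_010512 and *Igf1r*. *Igfbpl1* was lowest at 0.0292 CPM. *Igfbp6* had 1.08 CPM, and *Igfals*, the acid-labile subunit that joins IGFBP3 and IGF1 in serum, 3.03 CPM.

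The protease gene *Pappa*, whose product cleaves IGFBP4, had 18.6 CPM, and *Pappa2*, whose product cleaves IGFBP3 and IGFBP5, had 0.548 CPM. *Stc1*, which encodes an inhibitor of PAPP-A, was highest of this group at 6.51 CPM per kb. Of 9 adaptors and regulators, 8 were above 1 CPM. *Grb2* was the highest with 11.6 CPM per kb, and *Irs4* was lowest with 0.0292 CPM.

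All 11 kinases and phosphatases downstream were above 1 CPM. *Mapk3* was highest per kb at 18.0, followed by *Akt1* at 17.1, and *Inpp5d*, a phosphatase of blood cells, was lowest at 1.12 CPM per kb. The transcription factors *Foxo3* and *Foxo1*, which AKT keeps out of the nucleus, had 6.26 and 2.90 CPM per kb. The value of *Foxo3* is that of NM_019740 at 18.1 CPM, and an assembled transcript without a known length had 56.6 CPM, 3.13 times more. In the growth hormone axis, *Ghr*, the growth hormone receptor, was highest at 15.8 CPM per kb and *Stat5a* lowest at 1.89.

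**Figure D4:**
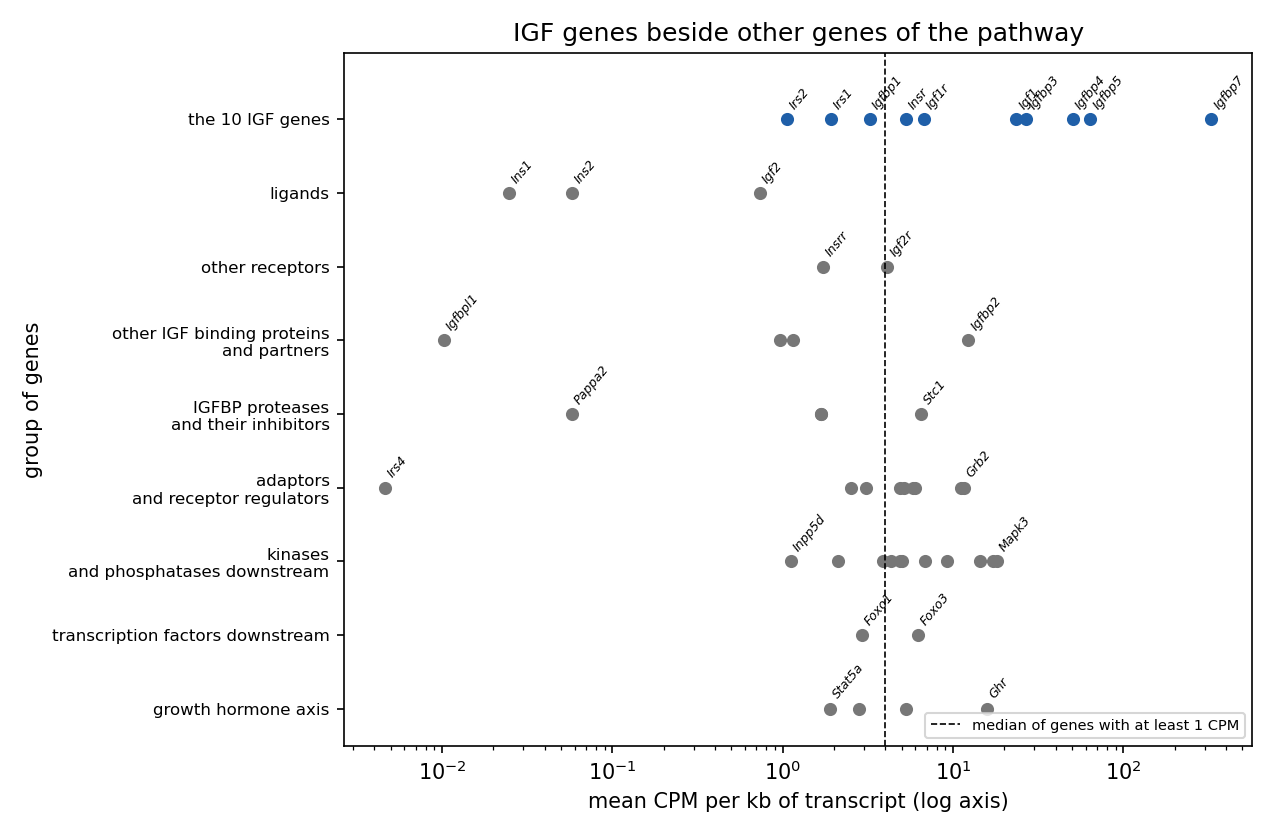
Mean CPM per kb of transcript (log axis) of the 10 IGF genes (blue) and of 39 other genes of the pathway (grey, by group, the outermost genes of each group named), with the median of genes with at least 1 CPM as a dashed line at 4.0. *Igfbp7* lies farthest right at 328.2, and *Ins1*, *Ins2*, *Igfbpl1*, *Pappa2* and *Irs4*, each under 1 CPM, lie farthest left.

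The tissue label was checked with markers. Of 18 markers of kidney cell types, 17 were listed, all above 1 CPM and from 5.19 CPM for the macrophage gene *Cd68* to 1030 CPM for the proximal tubule gene *Slc34a1*. Among genes of cells that KspCre does not target, the stromal genes *Col1a1*, *Acta2* and *Pdgfrb* had 128.1, 83.7 and 44.8 CPM. The endothelial genes *Pecam1* and *Kdr* had 52.7 and 27.0 CPM. These values are not divided by length. Markers of skeletal muscle were at most 0.0890 CPM and those of adrenal cortex at most 0.892 CPM. Liver is a main source of *Igf1* and *Igfbp1*, and the liver markers *Apoa2*, *Serpina1a* and *Cyp2e1*, the last of which kidney also expresses, had 1.34, 7.24 and 54.2 CPM. Their part in the levels of *Igf1* and *Igfbp1* was not tested. The transcript of the floxed cluster, *Mir17hg*, had a mean of 4.21 CPM and *Pkd1* 31.8 CPM over both groups, which checks neither deletion.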

How the data were processed

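RNA of 6 mouse kidneys, 3 SKO and 3 DKO, was sequenced as 51 bp single-end stranded reads. Trimming, mapping to mm10 with TopHat 2.0.12 and the iGenomes annotation, and removal of alignments of low mapping quality were done by the authors. The submitters' processing notes also name Cufflinks, featureCounts with Subread 1.4.6 and edgeR 3.2.4. The deposited log2 values used here are the average abundance that edgeR gives for each transcript over all libraries, as log2 CPM. They include a prior count and are not divided by length. The table's other 4 columns hold the authors' own test of DKO against SKO (a fold change, a statistic and its p-values) and were not used. An edgeR test of SKO against DKO was planned for counts of single samples and could not be run on means.

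Values were converted to CPM. Each gene was given the value of its most abundant transcript and, per kb, that of its highest RefSeq transcript with a length in GENCODE M21 (98.9% of genes with at least 1 CPM). Of the 15 RefSeq transcripts of the members, 14 had a length. Percentiles give the share of genes with a lower value. 3′-UTRs were matched by RefSeq identifier, and seeds were sought as exact strings of 7 bases. The search was tested on simulated data. The members and lists were chosen with earlier results of these data known. All members are named, as are the highest (per kb) and lowest genes of each group of the pathway list, and *Mir17hg* and *Pkd1*. Other genes were named after their values were seen. No protein sequences were used here. Python 3.11.15, numpy 2.4.6, pandas 2.3.3 and matplotlib 3.10.9 were used.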

Additional observations from a re-analysis of the deposited data

How the results depend on the processing

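With the deposited means alone, depth and the spread between mice set no limit that could be stated, and neither DESeq2, nor another filter on counts, nor the omission of single replicates could be run. No paired analysis was possible because no value of a single sample was used. A value was taken as moved when it changed by over 1.5-fold. All 10 genes stayed above 1 CPM with the median over a gene's transcripts and with the lowest CPM subtracted. Without division by length, 4 of the 10 genes kept their place in the order, and with the longest RefSeq transcript 8 did. A seed match of 8 bases left 0 genes with a miR-17/20a match, 0 with a miR-18a match and 0 with a miR-92a match, since it asks for an additional A, whereas 2 genes kept a miR-19 match. With the longest 3′-UTR of each gene the same 6 genes held 9 matches. The additional one, of miR-19 in *Igf1*, is followed by an A. Only *Igf1* (6308 against 1101 nt) and *Igfbp7* (240 against 232 nt) have another 3′-UTR there, so the other genes could not change. The IGF genes with a miR-17/20a, miR-18a, miR-19 or miR-92a match stayed 1, 1, 3 and 3 of 10. Among 11700 genes in this setting, the shares with these matches were 14.43%, 9.171%, 12.86% and 7.496%. Of 50 values of single genes, 46 did not move, but many of them could not. Subtraction of 0.0263 CPM cannot move genes of at least 4.94 CPM by 1.5-fold. For 4 genes the median is that of 1 transcript. Except for *Igf1*, the longest RefSeq transcript had the length already used. A high percentile has no room to rise 1.5-fold. The count of 46 is therefore no measure of stability. *Igf1* fell to 5.59 CPM per kb with its longest transcript, and *Irs2* to 11.1 CPM with the median of its transcripts. The percentile of *Igfbp1* was 57.4 among all genes and 54.7 among all transcripts, because genes under 1 CPM are then counted.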
